A study of Homo sapiens with 11 samples.

Results

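Ikaros peaks were examined at 10 genes of the NF-kB transcription factor system in human leukemia lines of the B-cell lineage (B-ALL, acute lymphoblastic leukemia). The genes were the 5 subunit genes NFKB1, NFKB2, REL, RELA and RELB, the inhibitor genes NFKBIA and NFKBIE, the brake genes TNFAIP3 and TRAF3, and the kinase gene IKBKB. A peak was taken where it carried the gene's name in the deposited annotation, overlapped the gene body, or lay within 1 kb of a transcription start site (TSS) of the gene in GENCODE release 44. By that rule the genes held 44 of 88692 peaks in treated JM1, 34 of 70894 in treated Nalm6, 41 of 83563 in REH, 14 of 19652 in 697 and 20 of 37448 in untreated JM1. The genes are 10 of 19962 protein-coding genes that were counted by the same promoter rule.

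The assay was chromatin immunoprecipitation with sequencing (ChIP-seq) of Ikaros, the zinc-finger protein encoded by IKZF1 that acts in lymphocyte development. JM1 and Nalm6 cells had been given the CK2 kinase inhibitor CX-4945 at 20 µM for 1 day, and untreated cells were JM1, REH and 697, all labelled as pre-B leukemia lines. A Bethyl antibody was used in JM1 and REH, whereas 697 and Nalm6 were precipitated with an affinity-purified antibody. Each condition had 1 peak list, so differences between conditions have no replicate check and no test, and the Nalm6 list belongs to a group of 2 Ikaros libraries. Line and antibody cannot be told apart between JM1 or REH on the one side and 697 or Nalm6 on the other, and untreated Nalm6 was not analysed here. Peak lists hold no expression values, so the cell type was not checked against marker levels. The depth of the libraries was not analysed here, and the lists differed in length. Percentiles from lists of different lengths cannot show whether binding changed.

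NF-kB subunits work as pairs that are held in the cytoplasm by IkB proteins until a kinase complex marks these inhibitors for destruction, after which the pairs enter the nucleus and bind DNA. In the canonical arm the kinase is IKBKB, and in the alternative arm TRAF3 keeps the pathway off by limiting the kinase MAP3K14. In B cells the system carries signals from the B-cell receptor, CD40 and the BAFF receptor, and NFKBIA, NFKBIE and TNFAIP3 are known targets of NF-kB that feed back on it.

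Promoter sequence is shown for the 6 genes whose window held a match to the NF-kB consensus, so that the letters can be read beside the Ikaros peaks that cover them. The sequences are from the RefSeq promoter table, build GRCh38.p14, and are written 5′ to 3′ on the gene's strand. Capitals mark the bases matched by the NF-kB consensus on either strand.
NFKB1 chr4:102501209-102501329 (+): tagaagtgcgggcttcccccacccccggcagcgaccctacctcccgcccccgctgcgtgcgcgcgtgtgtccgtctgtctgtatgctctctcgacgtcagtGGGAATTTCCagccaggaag
NFKB2 chr10:102394462-102394491 (+): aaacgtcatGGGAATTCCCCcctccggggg
REL chr2:60881518-60881547 (+): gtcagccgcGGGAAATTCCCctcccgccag
NFKBIA chr14:35404750-35404899 (-): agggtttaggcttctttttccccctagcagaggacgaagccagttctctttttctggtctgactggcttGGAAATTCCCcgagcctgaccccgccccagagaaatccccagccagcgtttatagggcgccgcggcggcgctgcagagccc
TNFAIP3 chr6:137867109-137867213 (+): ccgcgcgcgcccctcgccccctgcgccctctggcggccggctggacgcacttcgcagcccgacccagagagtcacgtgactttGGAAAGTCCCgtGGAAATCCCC
TRAF3 chr14:102777299-102777448 (+): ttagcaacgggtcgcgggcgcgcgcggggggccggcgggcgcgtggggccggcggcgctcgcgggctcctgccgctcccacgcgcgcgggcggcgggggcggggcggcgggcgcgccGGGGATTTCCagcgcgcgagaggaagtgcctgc
The stretches of NFKB1, REL and TRAF3 lay inside an Ikaros peak in all 5 lists. Those of NFKB2 and NFKBIA lay inside a peak in 4 lists, the 697 list being the exception, and that of TNFAIP3 lay inside a peak in 4 lists, with untreated JM1 the exception. The NFKB2 stretch belongs to a start site 1127 bp upstream of the canonical one.

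The motifs were searched on both strands in RefSeq windows of 300 bp, 250 before and 50 after each start. A window was found for 7 of the 10 genes, and RELB, NFKBIE and IKBKB are named only. In the window nearest the canonical TSS, 6 of the 7 genes held the NF-kB consensus, RELA being the exception, beside 12.4% of 15316 protein-coding genes. The Ikaros core GGGAA was found in 5 of these 7 windows, beside 66.2% of protein-coding genes. The longer form TGGGAA, which contains GGGAA, was found in 1 of the 7, beside 22.1%. Such matches describe letters in these windows and are not evidence of binding by either factor. At NFKB1 the TGGGAA occupied positions -50 to -45 from the start and overlapped the NF-kB consensus at -49 to -40, so the same bases served both searches. At the upstream start of NFKB2, TGGGAA at -108 to -103 likewise overlapped a consensus match that began at -107.

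Promoter peaks were present at all 10 genes in treated JM1, treated Nalm6, REH and untreated JM1, and at 9 of 10 in 697, where NFKBIE had none. The exact (Clopper-Pearson) 95% interval is 69.2 to 100% for 10 of 10 and 55.5 to 99.7% for 9 of 10, and covers counting error only. It treats the genes as a random draw, whereas they were chosen with earlier results of these data known. Of all protein-coding genes, 81.5% had a promoter peak in treated JM1, 74.5% in treated Nalm6, 82.1% in REH, 49.6% in 697 and 59.0% in untreated JM1. A promoter peak in all 5 lists was found for 9 of the 10 genes, against 41.9% of protein-coding genes. The pattern of NFKBIE, with a peak in the 4 other lists and none in 697, was shared with 13.7% of protein-coding genes. The number of NF-kB genes with a promoter peak in all 5 lists drops to 6 of 10 when each list is limited to its 19652 top-scored peaks. The all-gene share under that limit is not given here, so the 6 of 10 has no background beside it.

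The peak score is the authors' whole number per peak, and its percentile was taken among all peaks of the same list. The value given for a gene is that of the promoter peak nearest its canonical TSS. In treated JM1 the median over the 10 genes was percentile 95.6, beside 88.9 over all genes with a promoter peak. In treated Nalm6 it was 90.0 beside 84.2, and in REH 95.6 beside 88.4. In 697 the median over 9 genes was 56.9 beside 66.2, and in untreated JM1 it was 81.6 beside 70.8. The NF-kB genes thus lay above the all-gene median in 9 of 10 cases in treated JM1, 6 of 10 in treated Nalm6, 10 of 10 in REH, 2 of 9 in 697 and 7 of 10 in untreated JM1. The peaks were also broad. Their median width was 2268 bp in treated JM1 (1692 bp over all genes), 2117 bp in treated Nalm6 (1261 bp), 2999 bp in REH (1793 bp), 819 bp in 697 (760 bp) and 1233 bp in untreated JM1 (1038 bp).

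**Figure D1:**
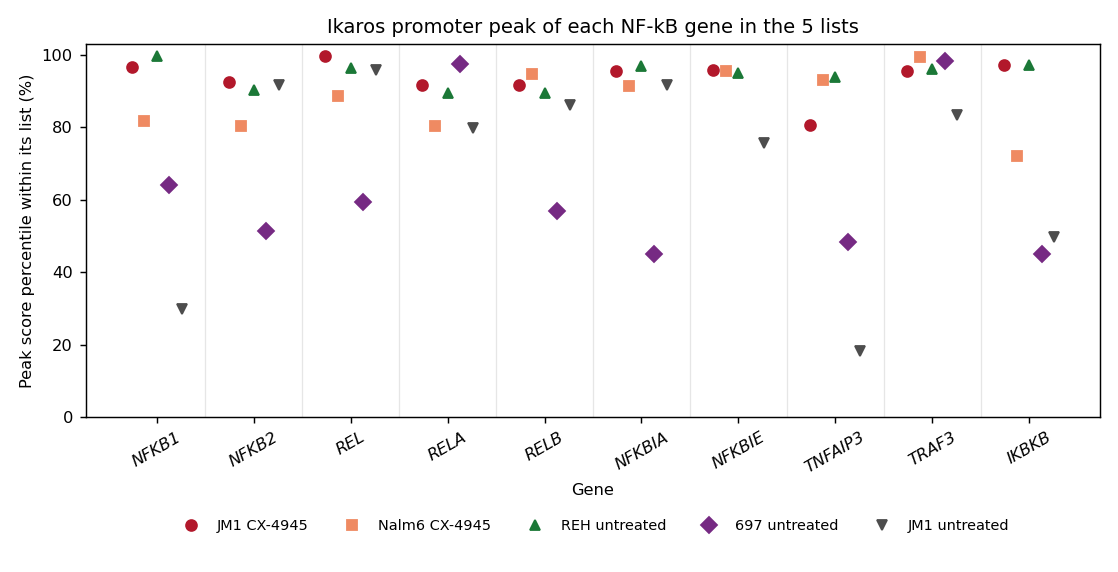
Percentile of the promoter peak score within its own list (vertical axis, 0 to 100) for each NF-kB gene (horizontal axis), with 1 point per peak list. The points of 697 and untreated JM1 are low for several genes, such as TNFAIP3 at 48.4 in 697 and 18.2 in untreated JM1, whereas TRAF3 stays between 83.3 and 99.4 in all 5 lists, and NFKBIE has no 697 point.

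Among the subunits, NFKB1 (chromosome 4, 102501330 to 102617302, plus strand) encodes a precursor whose processed form binds DNA without a transactivation domain of its own. Its promoter peak stood at percentile 96.7 (score 59) in treated JM1, 81.8 (34) in treated Nalm6, 99.7 (138) in REH, 64.1 (28) in 697 and 29.8 (13) in untreated JM1. The REH peak was the highest ranked of the gene and the untreated JM1 peak the lowest. All 5 peaks covered a common stretch from 102501183 to 102502346, which contains the canonical TSS at 102501359. The peaks were 1629, 1655, 1708, 1483 and 1164 bp wide in that order of lists. Along a gene of 116.0 kb, only 3 further peaks were found inside the body in any list, and each was in 1 list alone. They were an intronic peak at 102551176 to 102551526 in REH at percentile 76.3, an intronic peak at 102614100 to 102614954 in treated JM1 at 11.9, and a peak near an alternative TSS at 102607292 to 102607653 in treated JM1 at 32.9.

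NFKB2 (chromosome 10, 102394110 to 102402524, plus strand) encodes the precursor that is processed in the alternative arm. Its promoter peak stood at percentile 92.6 in treated JM1, 80.4 in treated Nalm6, 90.2 in REH, 51.4 in 697 and 91.7 in untreated JM1. A peak that covered the whole gene was present in 3 lists. It measured 23536 bp for treated JM1, 9526 bp for treated Nalm6 and 13405 bp for REH. In the other two lists the gene held separate shorter peaks. In 697 the nearest was 269 bp wide at 102394145 to 102394413, which is 1292 bp upstream of the canonical TSS, and another stood downstream at 102399413 to 102399772 (percentile 61.8). In untreated JM1 they were 102394078 to 102396379 (2302 bp) and 102399486 to 102399798 (percentile 29.8). The treated JM1 peak is annotated by the authors to PSD, a neighbouring gene.

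REL (chromosome 2, 60881491 to 60931612, plus strand) encodes c-Rel, a subunit with a transactivation domain that is prominent in lymphocytes. Its peak stood at percentile 99.7 (score 144) in treated JM1, 88.7 (41) in treated Nalm6, 96.4 (75) in REH, 59.4 (26) in 697 and 95.7 (29) in untreated JM1. Both JM1 lists and REH placed it in the top 5% of their peaks, and it ranked 263 in treated JM1 and 1477 in untreated JM1. This promoter was the only site of the gene in any of the 5 lists, over a body of 50.1 kb. The stretch common to all lists, 60881140 to 60881930, includes the consensus match printed above.

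RELA (chromosome 11, 65653599 to 65663090, minus strand) encodes the main transactivating subunit of the canonical arm. Its promoter peak stood at percentile 91.8 in treated JM1, 80.4 in treated Nalm6, 89.4 in REH, 97.4 in 697 and 79.9 in untreated JM1. RELA and TRAF3 were the 2 NF-kB genes above the all-gene median in 697. The REH peak was 5762 bp wide and reached into the gene as far as 65658240, whereas the 697 peak was 903 bp. Near the 3′ end a peak on an exon was present in 3 lists, at percentile 78.8 in treated JM1, 55.6 in treated Nalm6 and 87.9 in REH, with none in 697 or untreated JM1.

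RELB (chromosome 19, 45001461 to 45038192, plus strand) encodes the subunit that pairs with processed NFKB2 product. Its promoter peak stood at percentile 91.8 in treated JM1, 94.7 in treated Nalm6, 89.4 in REH, 56.9 in 697 and 86.0 in untreated JM1. At NFKB2, the whole-gene peaks of treated JM1, treated Nalm6 and REH also spanned the alternative TSS site that 697 and untreated JM1 held apart. With overlapping peaks of a gene merged across lists, RELB held the only separate site away from a canonical TSS in all 5 lists. It lay near an alternative TSS, with a common stretch at 45012052 to 45012345. This internal site stood at percentile 92.2 in treated JM1, 87.1 in treated Nalm6, 14.0 in REH, 96.4 in 697 and 94.1 in untreated JM1. It outranked the promoter of the same gene in treated JM1, 697 and untreated JM1, and was far below it in REH. A site at the 3′ end, 45037407 to 45040247, was present in 4 lists. Its percentile was 89.6 in treated JM1, 98.1 in treated Nalm6, 95.7 in REH and 37.7 in 697. Untreated JM1 had no peak there that reached the gene, although the treated JM1 and REH peaks each overlapped an untreated JM1 peak. The deposited annotation names the neighbouring gene CLASRP for the peaks of this site.

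Among the inhibitors, NFKBIA (chromosome 14, 35401079 to 35404749, minus strand) encodes IkB alpha, the rapidly resynthesized inhibitor of the canonical arm. Its peak stood at percentile 95.6 in treated JM1, 91.4 in treated Nalm6, 97.0 in REH, 44.9 in 697 and 91.7 in untreated JM1. The 697 peak was 319 bp wide (35404098 to 35404416) and lay downstream of the TSS, while the other 4 lists had peaks of 1301 to 3124 bp that spanned it. No list held a further peak inside this short gene, and 3 sites beyond it carried its name.

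NFKBIE (chromosome 6, 44258166 to 44265788, minus strand) encodes IkB epsilon. Its peak stood at percentile 95.8 in treated JM1, 95.4 in treated Nalm6, 95.0 in REH and 75.7 in untreated JM1. In treated JM1 the peak was 10481 bp wide and covered the whole gene, against 2867 bp in untreated JM1. The nearest 697 peak, at 44256935 to 44257640, lay 0.526 kb past the 3′ end of the gene, at percentile 89.1, and is annotated to SLC35B2. REH had a separate peak over the same 3′ end at 44256924 to 44258608, at percentile 93.0.

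Among the brakes, TNFAIP3 (chromosome 6, 137867214 to 137883314, plus strand) encodes A20, a ubiquitin-editing enzyme that ends NF-kB signalling. Its promoter peak stood at percentile 80.7 (score 27) in treated JM1, 93.0 (48) in treated Nalm6, 94.0 (61) in REH, 48.4 (22) in 697 and 18.2 (12) in untreated JM1. The untreated JM1 value was the lowest of all 49 promoter values. In that list the peak began at 137867439, downstream of the canonical TSS at 137867259, whereas the peaks of the 4 other lists covered the TSS. The deposited annotation names the neighbouring noncoding gene WAKMAR2 for the untreated JM1 peak and no gene for the 697 peak. Toward the 3′ end, a peak within 137881043 to 137881925 was present in treated JM1 (percentile 71.6), treated Nalm6 (39.6) and REH (70.4), and another within 137878507 to 137879457 in treated Nalm6 (24.5) and REH (88.4).

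TRAF3 (chromosome 14, 102777449 to 102911500, plus strand) encodes an adaptor and ubiquitin ligase, and had the highest mean promoter percentile of the 9 genes with a promoter peak in all lists, 94.5. Its peak stood at percentile 95.6 (score 52) in treated JM1, 99.4 (79) in treated Nalm6, 96.1 (73) in REH, 98.3 (73) in 697 and 83.3 (21) in untreated JM1. All 5 values were above the all-gene median of their own list. The 3 protein-coding genes with promoter percentiles nearest to those of TRAF3 among 8365 genes with a peak in all lists were MGAT4A, FHIP2B and KCMF1, with mean absolute differences of 0.722, 1.11 and 1.13 percentile points. TRAF3 also held 11 separate sites over its 134.1 kb, the most of any of the 10 genes. The highest-ranked gene-body peak outside promoters stood at percentile 78.8 in treated JM1 (102905727 to 102917899), 44.0 in treated Nalm6 (102819209 to 102820376), 76.3 in REH (102901268 to 102904254) and 91.7 in untreated JM1 (102903437 to 102903763), and 697 had none. The untreated JM1 peak was 327 bp wide and intronic, and the treated JM1, treated Nalm6 and REH lists each had a broader peak over it. The deposited annotation names AMN for the body peaks given for treated JM1, REH and untreated JM1. The treated JM1 body peak reaches past the gene end at 102911500. For the treated JM1 promoter peak the annotation names AL132801.1.

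IKBKB (chromosome 8, 42271302 to 42332460, plus strand) encodes the catalytic kinase that phosphorylates IkB proteins. Its promoter peak stood at percentile 97.1 (score 62) in treated JM1, 72.0 (28) in treated Nalm6, 97.3 (83) in REH, 44.9 (21) in 697 and 49.8 (15) in untreated JM1. The treated JM1 and REH peaks were 2401 and 2873 bp wide, and those of 697 and untreated JM1 were 231 and 346 bp. The neighbouring gene AC083973.1 is given in the deposited annotation for the peak in treated JM1, treated Nalm6 and REH. Inside the body the highest-ranked peak outside promoters stood at percentile 76.7 in treated JM1 (42287007 to 42287664), 75.8 in treated Nalm6 (42308735 to 42309092), 77.8 in REH (42330871 to 42331854) and 40.3 in untreated JM1 (42286855 to 42287276). The treated and untreated JM1 peaks overlapped in an intron, and the peaks given for treated Nalm6 and REH lay elsewhere. REH also had a peak over this intronic site, at 42286879 to 42290917 (percentile 70.4), which reached an alternative TSS and was counted there.

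NFKBIE has no 697 value, so the 10 genes were ordered by their mean percentile over the 4 other lists. REL stood first at 95.1, followed by NFKBIA at 93.9, TRAF3 at 93.6, NFKBIE and RELB at 90.5 each, NFKB2 at 88.7, RELA at 85.4, IKBKB at 79.1, NFKB1 at 77.0 and TNFAIP3 at 71.5. The ranges over lists overlapped between all neighbours in this order. With 697 included, the 9 other genes ran from TRAF3 at 94.5 through REL at 88.0 and RELA at 87.8 to TNFAIP3 at 66.8.

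**Figure D2:**
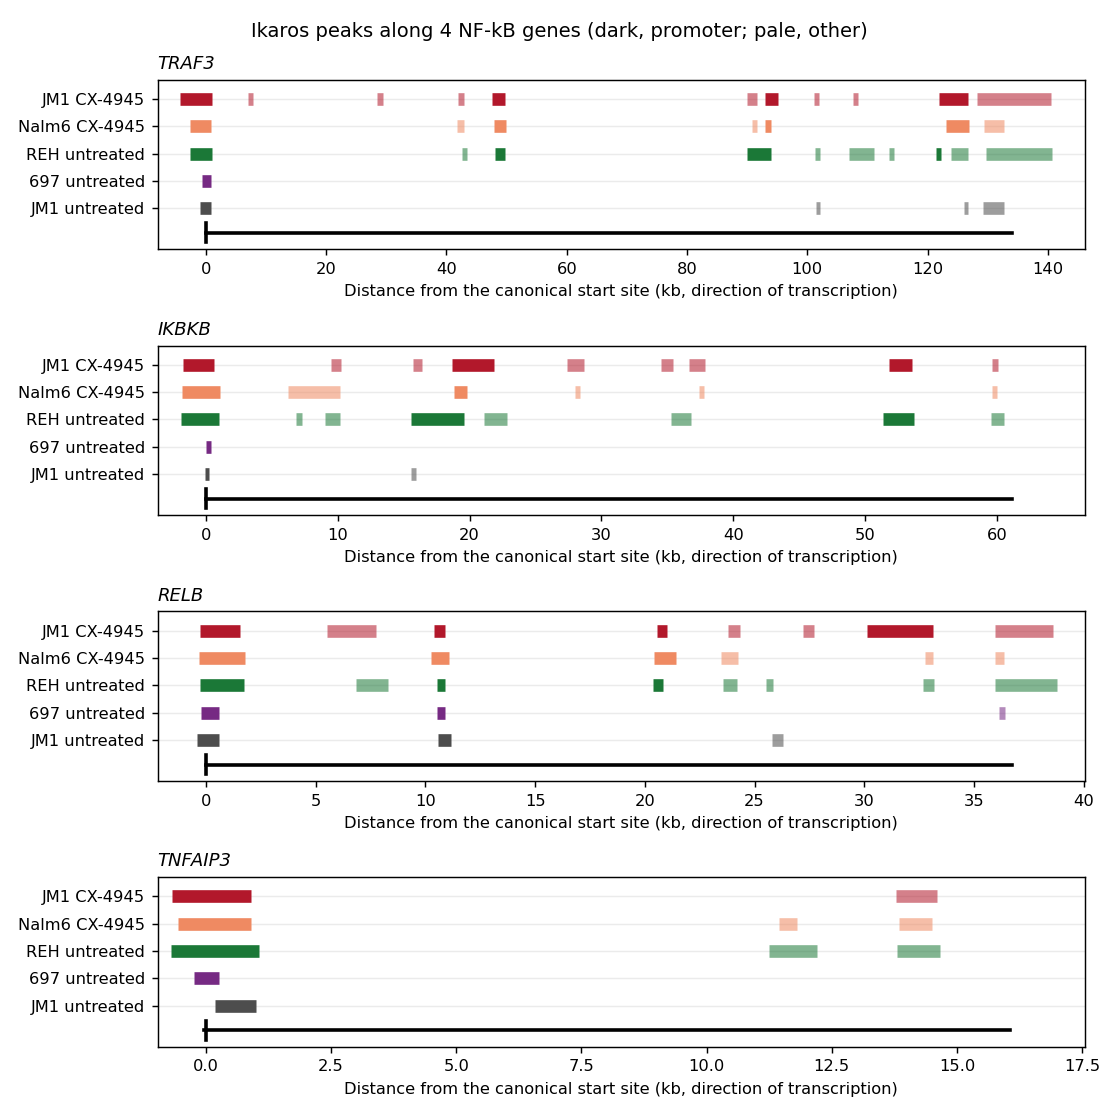
Peaks of each list (1 row of blocks per list, dark within 1 kb of a start site and pale elsewhere) along TRAF3, IKBKB, RELB and TNFAIP3, with distance from the canonical TSS in kb on the horizontal axis and the gene as a black line. A promoter peak stands at the start in all 5 lists for each of the 4 genes, RELB has a further dark block in every list, and the bodies of TRAF3 and IKBKB hold no peak in 697.

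More than 1 kb from their own TSSs, the 10 genes held 20 gene-body peaks in treated JM1, 13 in treated Nalm6, 21 in REH, 2 in 697 and 5 in untreated JM1. Promoters of neighbouring genes were not left out. The deposited annotation gives the RELB 3′ peak in treated JM1 and REH as a promoter peak of CLASRP. It gives the NFKBIE 3′ peak in REH as a promoter peak of SLC35B2. These REH peaks, at percentiles 95.7 and 93.0, were the highest ranked of the REH gene-body peaks. The gene-body counts move with list length. With each list limited to its 19652 top-scored peaks they were 5 in treated JM1, 2 in treated Nalm6, 7 in REH, 2 in 697 and 2 in untreated JM1. The value over all genes under that limit is not given here. Of the peaks in the full lists, 10, 4, 7, 0 and 4 were intronic in the same order, and the rest touched an exon. Over the 443.3 kb of these genes that is 4.51, 2.93, 4.74, 0.451 and 1.13 peaks per 100 kb, beside 2.53, 2.03, 2.36, 0.372 and 0.975 over all protein-coding genes. At least 1 such peak was found in 6 of the 10 genes in treated JM1 (44.5% of protein-coding genes), 5 in treated Nalm6 (39.9%), 7 in REH (42.0%), 2 in 697 (14.6%) and 3 in untreated JM1 (27.0%). TRAF3 held 19 of these peaks over the 5 lists, IKBKB 16 and RELB 14, and REL and NFKBIA held 0. They ranked below the promoter peaks, with a median percentile of 51.1 in treated JM1, 44.0 in treated Nalm6, 70.4 in REH, 25.0 in 697 and 40.3 in untreated JM1. After merging across lists there were 47 sites, of which 10 were the main promoters, 9 alternative promoters, 12 exonic body sites, 9 intronic sites and 7 lay outside the gene but carried its name.

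The treatment comparison asks how Ikaros peaks differ in JM1 after CK2 inhibition, with line and antibody the same. No NF-kB gene had its promoter peak in 1 of the JM1 lists alone, since all 10 had a peak in treated and in untreated JM1. Of protein-coding genes, 23.0% had a promoter peak in treated JM1 alone and 0.566% in untreated JM1 alone. This count depends on the score threshold and list length. With a score of at least 20, 4 genes (NFKB1, NFKBIE, TNFAIP3 and IKBKB) had a promoter peak in treated JM1 alone, beside 45.9% of protein-coding genes. With each list limited to its 19652 top-scored peaks, 3 genes (NFKB1, TNFAIP3 and IKBKB) did, beside 21.1%. Of the 44 treated JM1 peaks 17 (38.6%) overlapped an untreated peak, beside 29.0% of all treated JM1 peaks. Of the 20 untreated JM1 peaks 17 (85%) overlapped a treated one, beside 84.1% of all untreated JM1 peaks. Promoter peaks made up 19 of these 44 and 13 of these 20, against 22839 of 88692 and 14892 of 37448 in the whole lists. The overlap shares are therefore of sets with unlike make-up.

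All 10 promoter peaks were wider in treated JM1, as were 88.6% of the 11660 genes with a peak in both lists. The median ratio of treated to untreated width was 2.54 over the 10 genes and 1.95 over all of these genes. NFKB2 had the greatest ratio, 10.2, with 23536 bp in treated JM1 and 2302 bp in untreated JM1. IKBKB came next at 6.94, with 2401 bp in treated JM1 and 346 bp in untreated JM1. In 7 of the 10 genes the treated peak contained the untreated peak whole. The share of all genes with this containment is not given here, so the 7 of 10 has no background beside it.

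All 10 percentiles were also higher in treated JM1, against 79.2% of the same genes. The median difference was 12.1 percentile points for the 10 genes, smaller than the 15.4 points over all genes. NFKB1 differed by 66.9 points, TNFAIP3 by 62.6 and IKBKB by 47.2, whereas NFKB2, REL, RELB and NFKBIA were already above percentile 86 in untreated JM1. For 4 of the 10 genes the peak stood further down the list by rank in treated JM1, although its percentile was higher. NFKB2 ranked 6370 in treated JM1 and 2854 in untreated JM1, RELA 7096 in treated JM1 and 6839 in untreated JM1, RELB 7096 in treated JM1 and 4769 in untreated JM1, and NFKBIA 3825 in treated JM1 and 2854 in untreated JM1. The other 6 genes stood nearer the top in treated JM1. REL ranked 263 in treated JM1 and 1477 in untreated JM1, and NFKB1 ranked 2862 in treated JM1 and 24243 in untreated JM1.

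**Figure D3:**
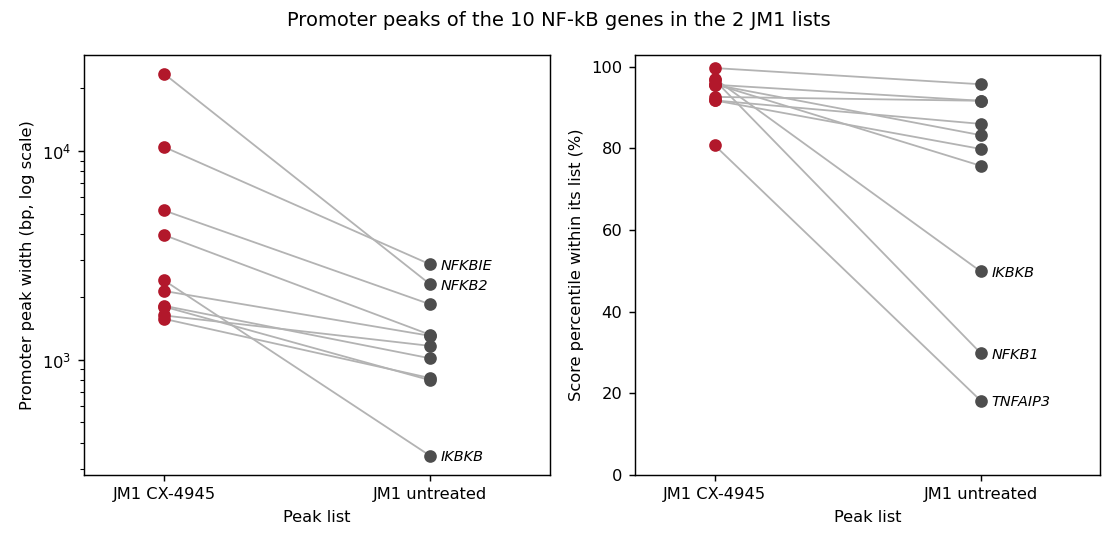
Promoter peaks of the 10 genes in treated JM1 (red) and untreated JM1 (grey), by peak width in bp on a log axis (left panel) and by percentile of the peak score in its own list (right panel), with a line joining the values of a gene. Every gene lies higher in treated JM1 in both panels, with the steepest percentile lines at NFKB1, TNFAIP3 and IKBKB.

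Peaks found in treated JM1 alone, meaning with no overlap in untreated JM1, numbered 27 of 44 (61.4%, beside 71.0% of all treated JM1 peaks). Of these, 7 lay near alternative TSSs and 20 elsewhere. TRAF3 and IKBKB held 7 each and RELB 5. The highest ranked were 2 in RELB, at 45025232 to 45025785 (score 36, percentile 90.2) on an exon and at 45022009 to 45022476 (score 30, percentile 85.0) near an alternative TSS. At percentile 78.8 followed 65654744 to 65656218 in RELA, 45028684 to 45029174 in RELB and 102825093 to 102827191 in TRAF3. Of the peaks named, only the RELB peak at 45028684 to 45029174 was in no other list. The others each overlapped a peak in treated Nalm6 and in REH. In untreated JM1, 3 of 20 peaks had no overlap in treated JM1 (15%, beside 15.9% of all its peaks). They lay at 65658188 to 65659115 in RELA (percentile 7.90), at 45027252 to 45027757 in an intron of RELB (18.2) and at 35414508 to 35414823 beyond NFKBIA (40.3). The RELA and RELB peaks among them each overlapped a REH peak. Of the gene-body peaks, 16 of 20 (80%) in treated JM1 had no untreated counterpart, beside 80.6% of all such peaks of that list. In untreated JM1 it was 1 of 5 (20%), beside 22.0%. These shares are close to the background of the lists. The treated JM1 count includes a promoter peak of CLASRP, so it and its background may not be of like sets. The counts of sites in 1 list alone depended on the settings. Limiting both JM1 lists to the same number of top-scored peaks gave 9 sites in treated JM1 alone and 6 in untreated JM1 alone. A score of at least 20 gave 15 in treated JM1 alone and 1 in untreated JM1 alone. A reciprocal overlap of 50% gave 41 in treated JM1 alone and 17 in untreated JM1 alone. The shares of all peaks under these settings are not given here.

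REH and JM1, both untreated and precipitated with the same antibody, were compared next, and this comparison shares the untreated JM1 list with the preceding one. All 10 genes had a promoter peak in REH and in untreated JM1, and 23.5% of protein-coding genes had one in REH and not in untreated JM1. The peak was wider in REH in 10 of 10 genes (90.9% of 11682 genes), with a median ratio of 2.28 beside 2.09 over all genes. The percentile was higher in REH in 9 of 10 (77.7% of genes), with a median difference of 11.2 points beside 15.2. NFKB2 was the exception, at 90.2 in REH and 91.7 in untreated JM1. TNFAIP3 differed by 75.9 points, NFKB1 by 69.9 and IKBKB by 47.5. In untreated JM1, the list that both comparisons subtract, these 3 genes had the lowest percentiles of the 10 for the promoter peak nearest the canonical TSS.

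Of the REH peaks 20 of 41 (48.8%) overlapped an untreated JM1 peak, beside 30.4% of all REH peaks. Promoter peaks made up 17 of these 41 and 22699 of 83563 in the whole REH list, so the sets differ in make-up. Of the untreated JM1 peaks 19 of 20 (95%) overlapped a REH peak, beside 85.2% of all. The 21 REH peaks with no overlap in untreated JM1 (51.2%, beside 69.6% of all REH peaks) were 5 near alternative TSSs and 16 elsewhere. They included a peak at 45034155 to 45034653 in RELB (percentile 89.4), the peak at 137878507 to 137879457 in TNFAIP3 (88.4) and a peak at 42322656 to 42325039 in IKBKB (81.6). Each of these sites was also in a treated list. The RELB site was in treated JM1 and treated Nalm6, the TNFAIP3 site in treated Nalm6 and the IKBKB site in treated JM1. Of the gene-body peaks, 14 of 21 (66.7%) in REH had no counterpart in untreated JM1, beside 79.5% of all non-promoter gene-body REH peaks. In untreated JM1 it was 0 of 5, beside 19.6%. The 21 REH peaks include promoter peaks of CLASRP and SLC35B2, which both overlapped an untreated JM1 peak. The REH share and its background may therefore not be of like sets.

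The motifs were also counted in 300 bp centred on the promoter peak of each gene. The NF-kB consensus was in 1 of 10 in treated JM1 (14.6% of all promoter peaks), 4 of 10 in treated Nalm6 (16.9%), 2 of 10 in REH (14.9%), 6 of 9 in 697 (19.9%) and 4 of 10 in untreated JM1 (18.1%). In 697 the genes were NFKB2, REL, RELA, TNFAIP3, TRAF3 and IKBKB. The Ikaros core GGGAA was in 7 of 10 in treated JM1 (65.4%), 8 of 10 in treated Nalm6 (64.5%), 6 of 10 in REH (65.3%), 4 of 9 in 697 (59.4%) and 6 of 10 in untreated JM1 (64.6%). Its longer form TGGGAA was in 3 of 10 in treated JM1 (24.1%), 2 of 10 in treated Nalm6 (22.2%), 2 of 10 in REH (23.9%), 1 of 9 in 697 (14.3%) and 2 of 10 in untreated JM1 (21.3%). Peak centres differed among the lists, so these windows fall on different DNA in each.

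For the wider pathway, 64 further genes were sorted by role. A promoter peak was found at 55 of them (85.9%) in treated JM1, 50 (78.1%) in treated Nalm6, 57 (89.1%) in REH, 36 (56.3%) in 697 and 47 (73.4%) in untreated JM1, beside the shares of all protein-coding genes given above. Their median percentile was 93.3 in treated JM1, 88.3 in treated Nalm6, 92.7 in REH, 65.2 in 697 and 75.7 in untreated JM1. In all 5 lists 32 of the 64 had a peak, beside 41.9% of protein-coding genes. By role, the kinase complex genes were covered in 8 of 8 in treated JM1, 7 in treated Nalm6, 8 in REH, 5 in 697 and 8 in untreated JM1. The 11 brakes and ubiquitin enzymes were covered in 11, 10, 11, 9 and 9 cases in that order, and the 14 adaptor genes in 14, 12, 14, 10 and 12. Of 9 receptors 8, 8, 9, 4 and 6 had a peak, of 8 ligands 5, 5, 6, 2 and 4, and of 4 other IkB proteins 4, 3, 4, 3 and 4. Of the 10 target genes 5, 5, 5, 3 and 4 had a peak, the lowest share of any role in 4 lists, while in 697 the ligands had the lowest (25% against 30% of targets).

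**Figure D4:**
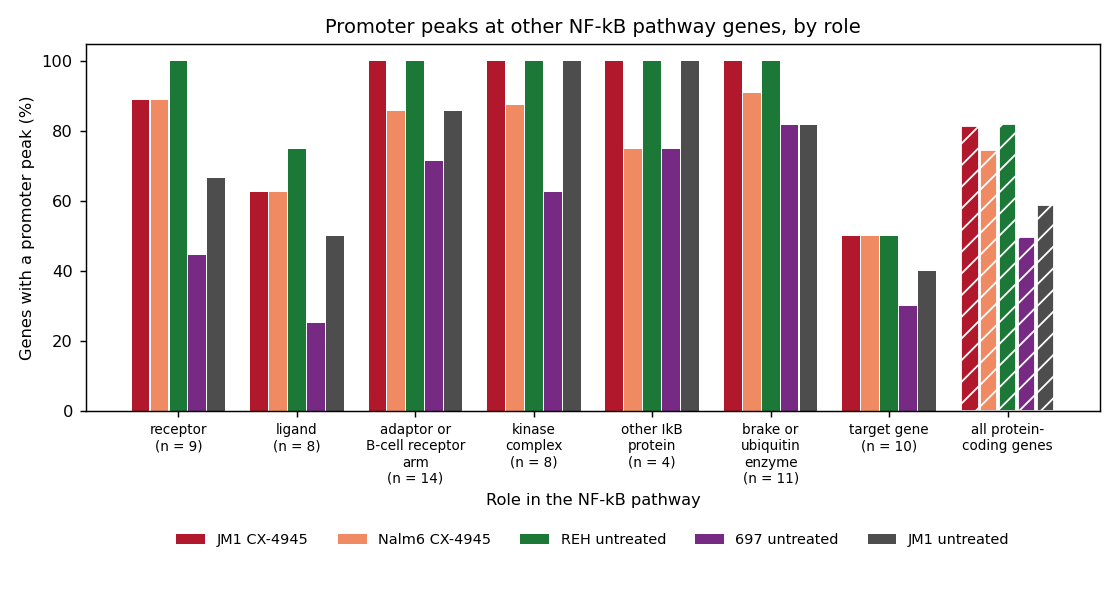
Share of pathway genes with a promoter peak (vertical axis, %) by role, with 1 bar per list and hatched bars for all protein-coding genes at the right. Adaptors, kinases and brakes reach 100% in treated JM1 and REH, and target genes stay at 30 to 50% in every list.

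Within this wider set, 8 genes had a promoter peak in treated JM1 and none in untreated JM1, 47 had one in both, 9 in neither, and 0 in untreated JM1 alone. The 8 were BCL10 at percentile 98.4 in treated JM1, CYLD at 97.1, MYD88 at 88.1, BIRC3 at 87.2, TNFRSF11A at 83.7, TNF at 76.7, IL6 at 68.4 and IL1R1 at 45.6. In treated JM1 the TNF peak had the same score (25) and width (4526 bp) as the LTA peak. LTA also had a peak in untreated JM1, 298 bp wide at percentile 97.3. BCL10 links the B-cell receptor to the kinase complex, and CYLD removes the ubiquitin chains that sustain it. All 8 are a share of 12.5%, below the 23.0% of protein-coding genes with this pattern. No list held a promoter peak at 7 genes, which were the targets BCL2A1, CCL3, CCL4, CD69 and CXCL8 and the ligands CD40LG and TNFSF13B. The share of all protein-coding genes with no promoter peak in any list is not given here, so this count has no background beside it. TNFSF13B encodes BAFF, a survival factor of B cells.

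The highest-ranked pathway promoters differed among the lists. They were TBK1 (percentile 99.8), OTULIN (99.6) and NFKBIB (99.4) in treated JM1, and TNFSF11 (99.6), CD83 (98.8) and IRF4 (98.7) in treated Nalm6. In REH they were NFKBIB (99.7), ICAM1 (99.5) and TAB2 (99.2), and in 697 TNFRSF13C (99.6), TNFRSF11A (96.6) and MAP3K14 (93.7). In untreated JM1 they were TBK1 (99.8), NFKBIB (99.8) and BTK (99.6). TNFRSF13C encodes the BAFF receptor and MAP3K14 the kinase that TRAF3 holds down, and the TRAF3 promoter itself stood at 98.3 in the 697 list. NFKBIB, encoding IkB beta, and BTK had no promoter peak in treated Nalm6 or in 697. IKBKG, the scaffold of the kinase complex, had none in treated Nalm6, whereas its percentile was 97.8 in treated JM1, 92.5 for REH, 37.7 for 697 and 95.7 for untreated JM1.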

How the data were processed

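Peaks were analysed from 1 deposited list for each of 5 conditions, out of 11 libraries (6 Ikaros, 5 input). Libraries were grouped by the line and treatment in their titles. Per the labels' protocols, BBDuk trimmed the reads. The submitters' processing notes name the build GRCh38 and the tools HOMER 4.10, MACS2 2.1.1 and Bowtie2 2.3.4.3. Not given in the sources used here: peak-calling settings, the control, pooling of libraries and what the score measures. Every peak has a score, a whole number that the authors made and deposited with the peak's position and nearest gene, per the file headers, with a minimum of 10 in each list. A lower calling threshold or deeper sequencing gives a longer list and joins peaks into broader ones, which affects counts, widths and percentiles.

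From these lists peaks were assigned to genes with GENCODE release 44 (Python 3.11.15, pandas 2.3.3, numpy 2.4.6, scipy 1.17.1). A promoter peak had any part within 1000 bp of any TSS of the gene, and overlap of lists meant at least 1 bp. Percentiles were ranks within a list, with ties at their middle rank. With 1 list per condition no test was run. The gene assignment was tested on simulated data. Alternatives changed the TSS window, the TSSs counted, the score minimum, list length and overlap. The 10 genes and the 64 pathway genes were chosen with earlier results of these data known. Genes were named by rule: all 10 genes in every list, the highest gene-body peak per list, sites of 1 JM1 list by percentile, pathway genes that differ in JM1, have no peak or rank in the top 3, and the 3 genes most like TRAF3. IKBKG and the REH sites with no overlap in untreated JM1 were named after their values were seen.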

Additional observations from a re-analysis of the deposited data

How the results depend on the processing

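Of 82 comparisons with another setting, 22 moved: a count by over 1.5 times, or a median percentile by any amount. The other 60 moved less, which includes the fall from 9 to 6 genes with a promoter peak in all lists (score of at least 20, or lists limited to the shortest) and from 10 to 7 in untreated JM1 at the shortest length. With a score of at least 20, gene-body peaks numbered 8 in treated JM1, 5 in treated Nalm6, 13 in REH, 0 in 697 and 1 in untreated JM1, and 6 genes kept a promoter peak in untreated JM1 (NFKB1, NFKBIE, TNFAIP3 and IKBKB lost it). With lists limited to the shortest, gene-body peaks were 5, 2 and 7 in treated JM1, treated Nalm6 and REH and 2 in untreated JM1. A 2 kb window left 1 in 697. Sites in treated and not in untreated JM1 numbered 15 with scores of at least 20 and 9 with JM1 lists of equal length. They numbered 41 with 50% reciprocal overlap. Sites in untreated and not in treated JM1 numbered 1, 6 and 17 in that order. Ranked among promoter peaks only, the median percentiles were 84.6 in treated JM1, 74.3 in treated Nalm6, 85.3 in REH, 43.3 in 697 and 70.3 in untreated JM1. The cause of these moves was not tested beyond the construction of each setting. Chosen after seeing the data, the canonical TSS alone and the peak centre within 1 kb each left 8 genes with a promoter peak in all lists. No paired analysis was possible because each condition had 1 list. Depth was not analysed here.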
